A study of Arabidopsis thaliana with 6 samples.

Results

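The UDP-glycosyltransferases (UGTs) of Arabidopsis thaliana were followed in suspension-cultured cells grown with or without isoxaben, a herbicide that blocks cellulose synthesis. Members were all probe sets of exactly 1 gene whose symbol in the platform annotation has the UGT form of a family number, a letter and a gene number. The rule found 47 probe sets, each for a different gene, among 22746 on the array other than its controls. The isoxaben group held 3 arrays of cultures labelled with 0.1 mM isoxaben, and the control group held 3 arrays of cultures with no treatment label. Both groups grew in Murashige and Skoog medium with sucrose, naphthalene acetic acid, a synthetic auxin, and kinetin, a cytokinin. The labels give no ecotype, cell line, culture age or length of treatment, so short exposure and long growth in the herbicide cannot be told apart. They name a cell suspension and no cell type, so there was no labelled cell type to check.

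UGTs transfer a sugar, usually glucose, from a UDP-sugar to a small acceptor molecule in the cytosol. Their acceptors include plant hormones, flavonoids, lignin precursors, the precursors of glucosinolates, sterols and foreign compounds such as herbicides. The sugar makes the acceptor more soluble, often inactivates it and commonly directs it to the vacuole, and beta-glucosidases can release it again. Genes of a UGT family number share sequence and often lie side by side in the genome.

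The 47 genes fell into 11 families. By number, UGT71 had 9 members, UGT76 had 8, UGT73 had 7, UGT84 and UGT85 had 5 each, UGT72 had 4, UGT74 and UGT78 had 3 each, and UGT80, UGT87 and UGT88 had 1 each. In RefSeq, 64 genes carry a UGT symbol or synonym, so 17 of them are not among the members.

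The arrays were Affymetrix ATH1 arrays, which give 1 signal intensity per probe set on a linear scale in arbitrary units. Correlations of the log2 values were 0.956 to 0.992 within groups and 0.745 to 0.773 between them. The titles put replicate 1 of each group in a first set and replicates 2 and 3 in a second. DCB appears as a code in the source name of isoxaben replicate 1, although isoxaben is the agent in its other labels. Results are therefore also given without that array. Control replicate 1 had 7023 outlier cells in the scanner notes, against 160 to 613 on the other arrays. Of the markers fixed for cell types the cultures could hold, few had a named probe set. The marker of dividing cells, AUR1, a mitotic kinase, had signals of 368.2, 413.4 and 385.9 on isoxaben arrays, against 76.1, 76.0 and 69.5 on control arrays. The green-cell marker RCA, which activates Rubisco, had 178.1, 136.9 and 102.6 against 97.4, 57.6 and 60.9. Both root hair markers stayed below the filter signal on all arrays. The part of these differences in the UGT results was not tested. In bulk RNA, fewer cells of a type and less RNA per cell cannot be told apart.

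Of the 47 UGT probe sets, 15 passed the filter on dim probe sets, which dropped those with a mean log2 value below the 40th percentile, at a signal of 22.1. The other 32 were dim and are described further on. Of the 15, 4 rose with isoxaben (UGT88A1, UGT73B5, UGT73B1 and UGT73B4), 2 fell (UGT76B1 and UGT73D1) and 9 did not pass the test (limma, Benjamini-Hochberg adjusted p under 0.05). UGT73B1 passed the filter only through its isoxaben arrays, and 3 rose without it. With UGT73B1 counted, 40% of the tested members were called, 26.7% higher and 13.3% lower. Over all 13648 tested probe sets, 56.6% were called, 29.4% higher and 27.2% lower. The 3 UGTs that changed at least 2-fold on the log2(signal + 16) scale were 20% of the tested members, 1 of them higher and 2 lower. Over all tested probe sets that share was 20.9%, 11% higher and 9.92% lower. The median log2 change was 0.01 over the tested members and 0.01 over all tested probe sets. The share of UGTs with a large change was thus close to that of the whole array. The arrays of the groups did not overlap for 6 of 15 members, 4 with isoxaben above and 2 below, against 63.2% of all tested probe sets, 32.8% above and 30.4% below.

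**Figure D1:**
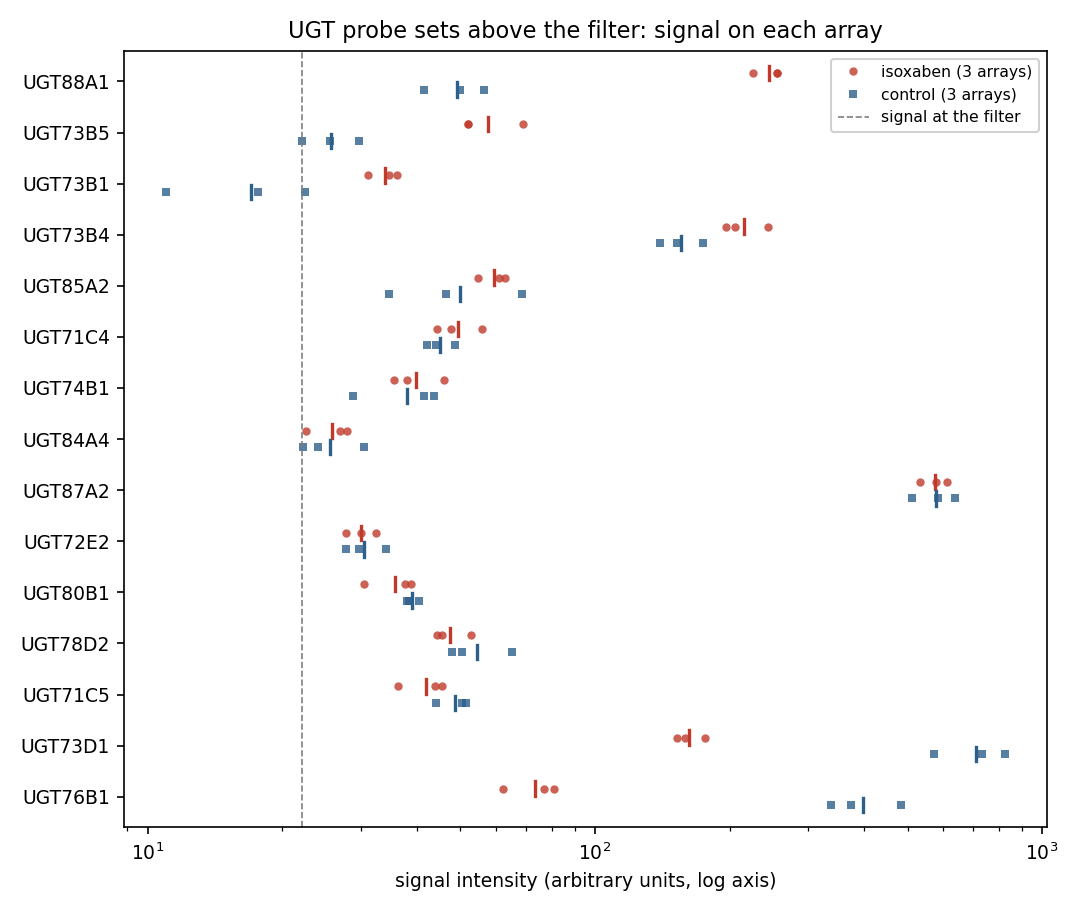
Signal intensity (arbitrary units, log axis) of the 15 UGT probe sets above the filter on each isoxaben array (circles) and control array (squares). Short bars are group means (n = 3), and the dashed line is the filter signal of 22.1. The groups lie apart for UGT88A1, UGT73B5, UGT73B1, UGT73B4, UGT73D1 and UGT76B1, and overlap for the other 9.

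UGT76B1 (AT3G11340) glucosylates salicylic acid, N-hydroxypipecolic acid and isoleucic acid, small molecules of plant immunity. Its signal was 76.8, 80.8 and 62.4 on isoxaben arrays, against 336.7, 373.1 and 483.4 on control arrays. All isoxaben arrays lay far below all control arrays. The mean was 73.3 ± 9.68 in isoxaben and 398 ± 76.4 in control cultures (SD, n = 3 each), a 5.42-fold lower signal. The log2 change was -2.20 ± 0.15 (SE; limma, adjusted p = 1.71e-06), with a 95% interval of -2.54 to -1.86. UGT74F1, which also glucosylates salicylic acid, was dim in both groups, with signals of 2.2 to 3.9 in isoxaben and 2.1 to 3.2 in control cultures.

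UGT73D1 (AT3G53150) was the other UGT that fell. Its signal was 175.8, 152.9 and 159.0 on isoxaben arrays, against 825.3, 732.0 and 571.9 on control arrays. The isoxaben values lay close together and the control values were spread more widely, with no overlap. The means were 163 ± 11.9 in isoxaben and 710 ± 128 in control cultures (SD, n = 3 each), a 4.37-fold lower signal. The log2 change was -2.01 ± 0.14 (SE; limma, adjusted p = 1.92e-06; 95% interval -2.32 to -1.70).

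UGT88A1 (AT3G16520), the only member with the family number 88, had the largest rise among the tested UGTs. Its signal was 254.8, 225.4 and 255.9 on isoxaben arrays, against 56.4, 49.9 and 41.4 on control arrays. Every isoxaben array was several times brighter than every control array. The means were 245 ± 17.3 in isoxaben and 49.2 ± 7.52 in control cultures (SD, n = 3 each), a 4.98-fold higher signal. The log2 change was 2.01 ± 0.13 (SE; limma, adjusted p = 1.06e-06; 95% interval 1.72 to 2.29).

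These changes of UGT76B1, UGT73D1 and UGT88A1 were also seen in each title set. The first set, with 1 array of each group and no test, gave -1.93, -2.13 and 1.90 in that order, and the second set gave -2.34, -1.95 and 2.06. The arrays of the first set are the DCB-coded isoxaben array and control replicate 1, the array with the most outlier cells. Within the second set limma called 7 of the 15 tested UGTs, 5 higher and 2 lower, against 66.1% of all tested probe sets, 35.4% higher and 30.7% lower. With any 1 array left out, the DCB-coded array included, all 3 kept their call and direction (limma, adjusted p up to 4.09e-05).

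The other 3 rises were smaller, and all were in the UGT73B group, enzymes known from responses to pathogens, reactive oxygen and foreign compounds. UGT73B5 (AT2G15480) had signals of 69.1, 51.9 and 52.0 on isoxaben arrays, against 29.6, 22.1 and 25.5 on control arrays. The means were 57.7 ± 9.90 and 25.7 ± 3.76 (SD, n = 3 each), a 2.24-fold higher signal with isoxaben, and the log2 change was 0.82 ± 0.15 (limma, adjusted p = 0.00116). The groups did not overlap.

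UGT73B4 (AT2G15490), which can conjugate the explosive TNT, had signals of 243.8, 196.8 and 206.1 on isoxaben arrays, against 139.7, 174.8 and 152.5 on control arrays. The lowest isoxaben array was above the highest control array. The means were 216 ± 24.9 and 156 ± 17.8 (SD, n = 3 each), 1.38-fold higher with isoxaben, and the log2 change was 0.43 ± 0.13 (limma, adjusted p = 0.0149). With each array centred on its median the change was 0.38 and the call was lost (limma, adjusted p = 0.0851).

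UGT73B1 (AT4G34138), which can glucosylate abscisic acid in vitro, had signals of 31.0, 34.7 and 36.1 on isoxaben arrays, against 17.6, 11.0 and 22.5 on control arrays. Its isoxaben arrays were all higher, while its control mean lay below the filter signal. A member that enters the test this way had to differ, so its call does not add to the count of rises. The means were 33.9 ± 2.64 and 17.0 ± 5.77 (SD, n = 3 each), 1.99-fold higher with isoxaben. The log2 change was 0.61 ± 0.17 (limma, adjusted p = 0.0127), and the call was lost without isoxaben replicate 3 (adjusted p = 0.0541). In the fit with no filter the adjusted p was 0.0301 (limma).

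Of the 4 tested UGT73 members, 3 were called higher, UGT73B1 among them, and 1 lower. With 56.6% of all tested probe sets called, this is no result about the family. The first title set gave changes of 0.90 for UGT73B5, 0.74 for UGT73B4 and 0.48 for UGT73B1, and the second gave 0.77, 0.28 and 0.67. The changes of UGT73B1 and UGT73B5 moved with the pseudocount. UGT73B1 changed by 1.00 with a pseudocount of 1 and by 0.28 with 64, and UGT73B5 by 1.13 and 0.44. Each remained called. The remaining members, UGT73C1, UGT73C2 and UGT73C7, were under the filter, with signals of 0.6 at most for UGT73C1, 6.0 for UGT73C2 and 10.5 for UGT73C7.

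**Figure D2:**
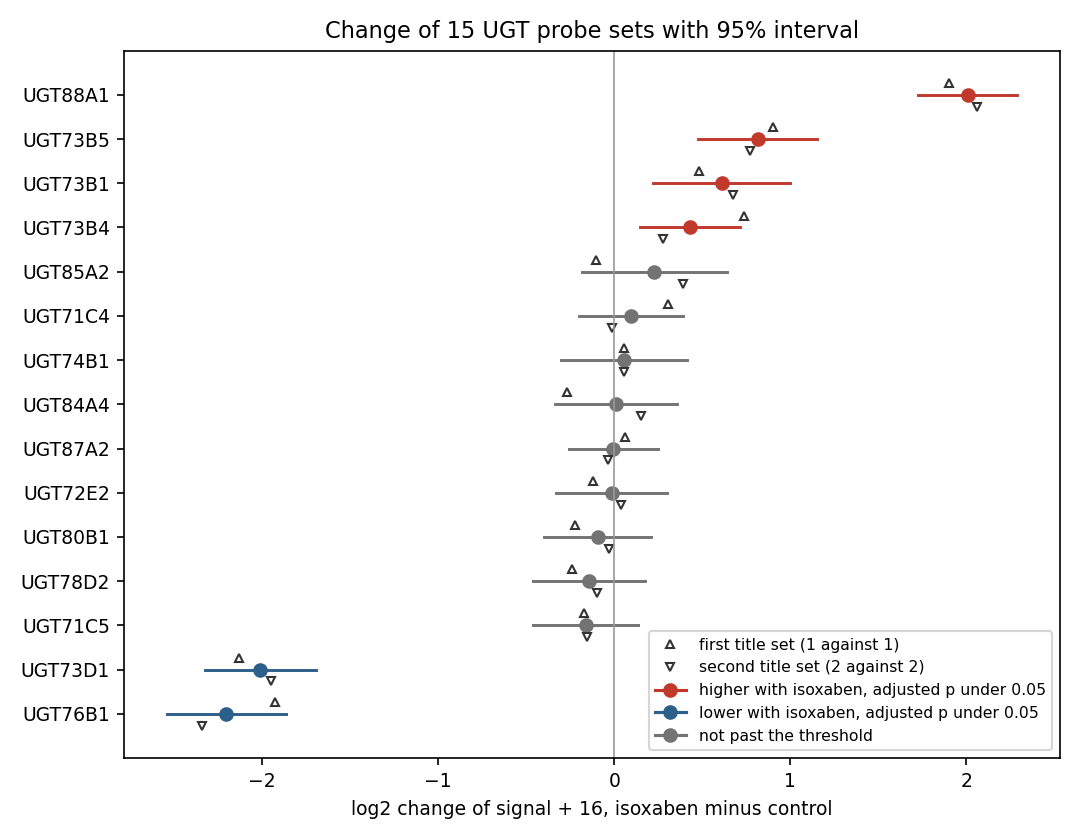
Log2 change of signal + 16, isoxaben minus control, for the 15 tested UGT probe sets (circles) with 95% intervals from limma (3 arrays against 3). Triangles give the change within each title set. UGT88A1 (2.01), UGT73D1 (-2.01) and UGT76B1 (-2.20) stand clear of 0 in both sets, and the intervals of the 9 grey members include 0.

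The 9 tested members that did not pass had log2 changes between -0.16 and 0.23, with limma adjusted p of 0.320 to 0.978. Their intervals all included 0 and together reach from -0.46 (UGT78D2) to 0.64 (UGT85A2). With 3 arrays in each group, changes within a member's own interval are not excluded for that member. The outer bounds are no common limit, since the same fit called UGT73B4 at 0.43. Of the UGTs of hormones, UGT71C5, which makes the glucose ester of abscisic acid, had signals of 43.9, 45.4 and 36.3 on isoxaben arrays, against 51.4, 44.2 and 50.3 on control arrays. Its log2 change was -0.16 ± 0.13 (limma, adjusted p = 0.332), and the groups overlapped.

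No tested member among the UGTs of flavonoids and phenylpropanoids passed the test. UGT72B1, listed with them but outside the symbol rule, fell with isoxaben (log2 change -1.46 ± 0.12, limma adjusted p = 4.40e-06) and is described further on. UGT78D2, which adds glucose to flavonols and anthocyanidins, had 52.8, 44.3 and 45.4 with isoxaben, against 65.2, 50.3 and 47.9 in control cultures (log2 change -0.14 ± 0.14). UGT72E2, which glucosylates the lignin precursors coniferyl and sinapyl alcohol, had 30.0, 27.8 and 32.3 against 34.0, 27.8 and 29.7 (-0.01 ± 0.14). UGT84A4, of the group that makes glucose esters of hydroxycinnamic acids, had 22.6, 26.9 and 27.9 against 30.5, 24.0 and 22.2 (0.01 ± 0.15). In all 3 tested members the values of the groups lay within each other's range or overlapped it. DFR, a reductase of anthocyanin synthesis, was the only tested gene on the list of flavonoid and phenylpropanoid synthesis, with a log2 change of 0.12 ± 0.22 (limma, adjusted p = 0.669).

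UGT74B1, which adds the glucose of glucosinolates, had 46.0, 35.6 and 37.9 with isoxaben, against 43.7, 41.4 and 28.7 in control cultures (log2 change 0.06 ± 0.16). UGT80B1, which makes steryl glucosides, had 30.5, 37.6 and 38.8 against 38.3, 38.0 and 40.5 (-0.09 ± 0.14). UGT87A2, a UGT linked to flowering time, had 533.2, 578.7 and 613.8 against 511.3, 637.8 and 585.9. Its log2 change was -0.00 ± 0.11 with a 95% interval of -0.26 to 0.25, the narrowest of the 9, and its groups overlapped fully.

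The last of the 9 were UGT71C4 and UGT85A2, which are given for completeness and were named after their values were seen. UGT71C4 had 55.8, 44.4 and 47.6 on isoxaben arrays, against 42.0, 44.2 and 48.7 on control arrays (log2 change 0.10 ± 0.13). UGT85A2 had 62.8, 61.1 and 54.8 against 68.7, 34.7 and 46.4, so that control replicate 1 was above all isoxaben arrays and the other controls below them. Its log2 change was 0.23 ± 0.18 (limma, adjusted p = 0.320), and 0.42 without control replicate 1 (adjusted p = 0.0193). Control replicate 1 was the highest of the controls for 28 of 47 UGT members, 59.6%, and for 53.8% of all probe sets.

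**Figure D3:**
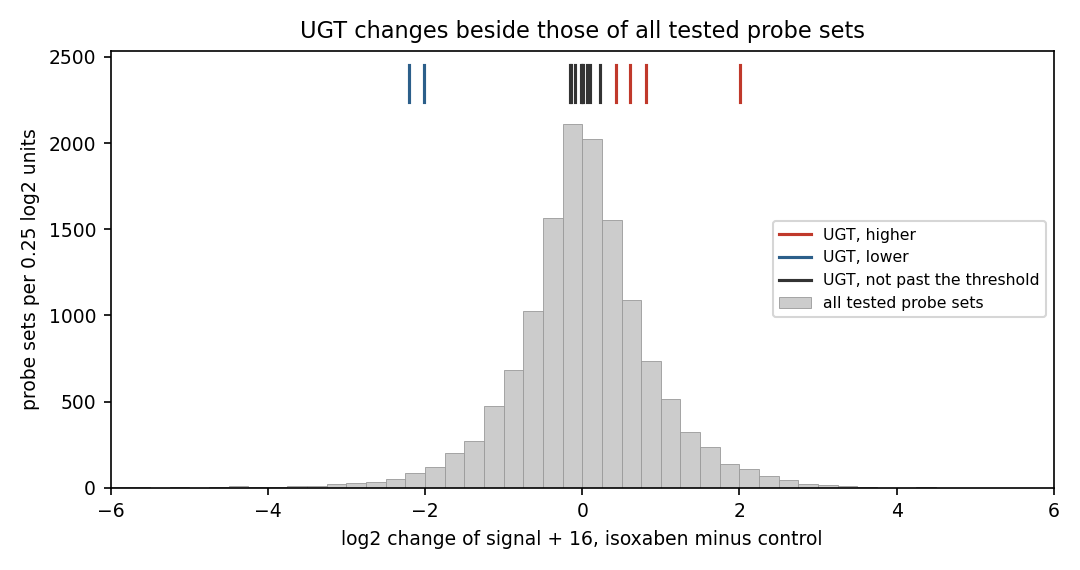
Number of tested probe sets (y axis) by log2 change of signal + 16, isoxaben minus control (x axis, bins of 0.25), with a tick above the bars for each of the 15 tested UGTs. Of the ticks, 9 lie near 0 where the bars are tallest, and UGT76B1, UGT73D1 and UGT88A1 lie near -2 and 2.

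The 32 UGT probe sets under the filter had signals of 0.4 to 40.7, and 26 of them stayed below the filter signal of 22.1 on all 6 arrays. Of these 32, 4 had all isoxaben arrays above all control arrays (UGT71B1, UGT71B6, UGT73C7 and UGT76C2) and 3 had them below (UGT71C2, UGT76D1 and UGT85A7). That is 21.9% with no overlap, against 17.8% of all probe sets under the filter, 9.75% higher and 8.02% lower. In the limma fit with no filter, 3 of the 32 were called, 2 higher and 1 lower. This is 9.38% of them, against 9.39% of all probe sets under the filter, 5.57% higher and 3.81% lower. Over all 47 members that fit called 6 higher and 3 lower, where 34.5% of all probe sets were called, 18.1% higher and 16.3% lower.

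UGT71B1 had signals of 40.7, 38.7 and 33.6 on isoxaben arrays, against 16.0, 9.8 and 6.5 on control arrays. It was the only dim member with all arrays of a group at or above the filter signal. The log2 change was 1.02 with no filter (limma, adjusted p = 0.00282).

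UGT76C2, which attaches glucose to ring nitrogens of cytokinins and inactivates them, had 20.7, 18.7 and 22.7 with isoxaben, against 7.6, 3.3 and 3.6 in control cultures. The groups lay apart, and 1 of the 6 values reached the filter signal. Its log2 change was 0.82 with no filter (limma, adjusted p = 0.00166). UGT76C1, an enzyme of the same activity, had 6.8, 2.7 and 10.3 with isoxaben, against 1.4, 5.3 and 1.8 in control cultures, and its groups overlapped (0.26, adjusted p = 0.223). The third cytokinin UGT, UGT73C1, did not exceed 0.6 on any array.

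UGT85A7 had 9.3, 7.8 and 2.3 with isoxaben, against 13.3, 13.0 and 20.0 in control cultures (log2 change -0.49 with no filter; limma, adjusted p = 0.0493). All 6 values were below the filter signal. The calls of UGT71B1 and UGT76C2 also held with pseudocounts of 1 and 64 and no filter, while that of UGT85A7 was lost with a pseudocount of 1 (limma, adjusted p = 0.0855).

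The 3 UGTs of auxin among the members were dim in both groups, although the medium holds a synthetic auxin. Other UGTs listed for auxin are not among the members. UGT84B1, which glucosylates indole-3-acetic acid, had 0.6 to 1.2 with isoxaben and 0.6 to 1.5 in control cultures. UGT84B2 had 1.4 to 9.6 and 1.6 to 6.8, and UGT74D1 had 11.2 to 14.2 and 8.6 to 17.3. Groups overlapped in all 3. Of the flavonoid and phenylpropanoid UGTs under the filter, UGT78D1, UGT78D3, UGT72E1, UGT72E3 and UGT84A1 did not exceed 6.7 on any array. UGT84A3 reached 27.5 on control replicate 1 and was at 5.0 to 16.1 on the others.

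**Figure D4:**
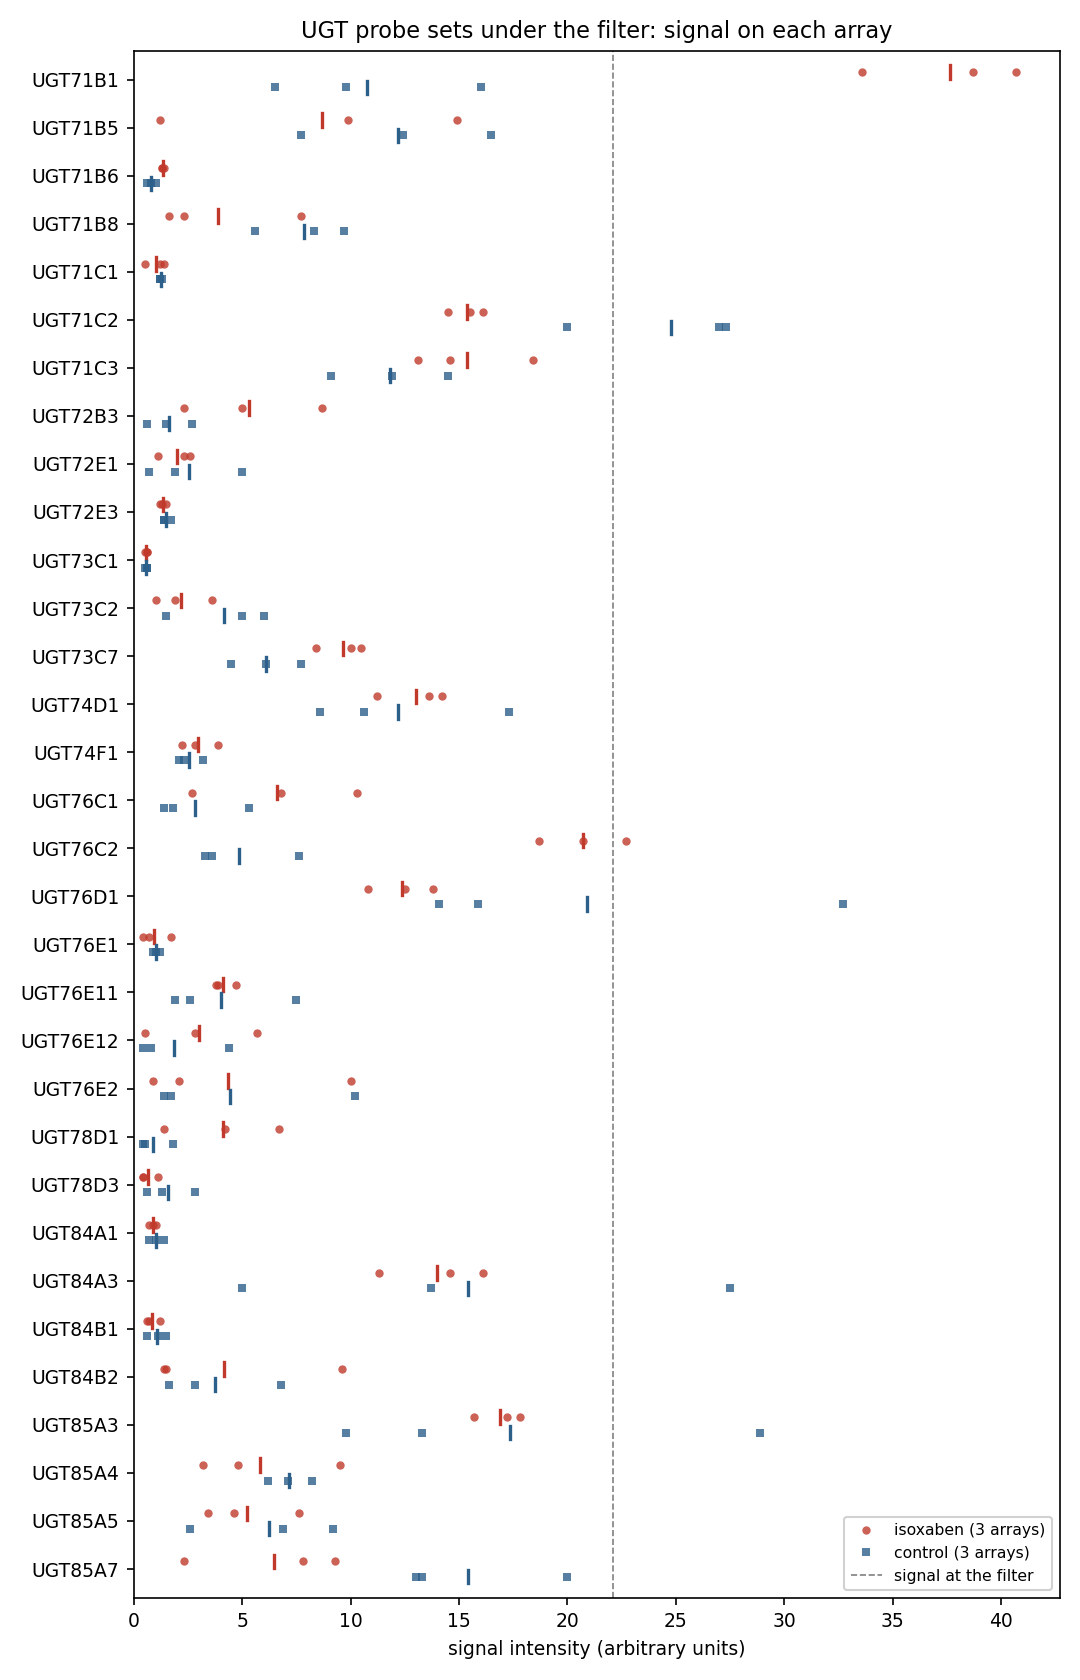
Signal intensity (arbitrary units, linear axis from 0) of the 32 UGT probe sets under the filter on each isoxaben array (circles) and control array (squares), with group means as short bars (n = 3). Most points lie left of the dashed filter signal of 22.1. UGT71B1 and UGT76C2 have isoxaben arrays to the right of all controls, and UGT85A7 has them to the left.

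In the RefSeq gene order, 14 pairs of UGT members lie next to each other with no other protein-coding gene between them, and these pairs involve 24 members. Neighbouring copies often share sequence, and RNA of one may then bind to probes of the other. Identity between these pairs was not computed here, and whether their probe sets are separate measurements was not tested. Both genes were tested in 2 pairs. UGT73B5 and UGT73B4 on chromosome 2 rose together, by 0.82 and 0.43. UGT71C5 and UGT71C4 on chromosome 1 both missed the threshold (-0.16 and 0.10). UGT73D1 on chromosome 3, which fell by 2.01, lies next to UGT73C7, whose dim signals were 10.0, 8.4 and 10.5 with isoxaben, against 4.5, 7.7 and 6.1 in control cultures (log2 change 0.22 with no filter; limma, adjusted p = 0.143). UGT76C2 and UGT76C1 on chromosome 5 are likewise neighbours.

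A further 4 probe sets belong to genes with a UGT name only as a synonym and so fall outside the rule. They are named here after their values were seen. GT72B1, also called UGT72B1, which conjugates chlorinated phenols and anilines, had 354.2, 330.9 and 307.4 on isoxaben arrays, against 1069.5, 908.2 and 841.4 on control arrays. It was 2.84-fold lower with isoxaben, with a log2 change of -1.46 ± 0.12 (limma, adjusted p = 4.40e-06). SGT, also called UGT80A2, makes steryl glucosides like UGT80B1. It had 83.1, 60.8 and 63.3 against 174.3, 123.8 and 107.2 and was 1.96-fold lower (log2 change -0.81 ± 0.18; limma, adjusted p = 0.00298). Both had every isoxaben array below every control array. UF3GT (UGT79B1), of anthocyanin synthesis, and AT5G54010 (UGT79B6) were under the filter, with groups that overlapped.

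Genes that supply UDP-sugars were listed, but 1 had a named probe set: USP, a UDP-sugar pyrophosphorylase. It had 214.7, 220.8 and 207.2 on isoxaben arrays, against 185.9, 212.9 and 204.3 on control arrays, with a log2 change of 0.09 ± 0.10 (limma, adjusted p = 0.511).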

How the data were processed

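RNA of 3 isoxaben and 3 control suspension cultures was measured on ATH1 arrays from biotin-labelled cRNA, per the labels' protocols. The deposited intensity values are linear and had been scaled by the authors, since trimmed means (2% off both tails) were 100.006 to 100.008. No source used here gives the algorithm, and detection calls were not used. Precision is limited by the number of arrays. Titles gave the groups. Separate cultures are not stated for the replicates, and p-values therefore reflect only sample-to-sample spread, possibly technical.

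After removal of 64 control probe sets, signals became log2(signal + 16), which understates changes of dim genes, and probe sets below the 40th percentile of the mean were dropped. The contrast of isoxaben and control was fitted in R 4.3.3 by limma 3.58.1 (eBayes with an intensity trend, two-sided, no covariate) and Benjamini-Hochberg adjustment over all 13648 tested probe sets. The fit was also run on simulated arrays with independent noise and few changed probe sets, all of them bright. These data differ from that setting, since most tested probe sets were called. Symbols came from the platform annotation (of 22746 probe sets, 13513 had 1 gene, 503 several and 8730 none) and were matched to RefSeq, TAIR10.1. All 47 members had a RefSeq entry. A CHI probe set, which RefSeq names a chitinase, was removed from the flavonoid list.

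Members and lists were chosen with earlier results of these data known. Named UGTs were those called with at least 2-fold change and no overlap, the 5 with the highest mean signal, and tested members of the role lists. From each context list up to 3 called genes with the smallest p were named. Same-numbered samples deviated together from their group means (r = 0.207, 0.110 and 0.128 across probe sets). The main fit was unpaired, and a block by replicate number was fitted as an alternative. Differently numbered arrays within the second title set reached 0.101 and 0.118, so pairs by number and a shared title set cannot be told apart. Alternatives were quantile normalization, median centring, other pseudocounts and filters, a single prior variance, array weights, blocks by replicate or title set, a fit of the second title set, and omission of single arrays.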

Additional observations from a re-analysis of the deposited data

How the results depend on the processing

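Each of the 15 tested UGTs was refitted under up to 17 alternatives. The calls of UGT88A1 (log2 change 1.45 to 2.30), UGT73D1 (-2.15 to -1.76), UGT76B1 (-2.41 to -1.74) and UGT73B5 (0.44 to 1.13) held under all in which they were tested. That of UGT73B1 was lost without isoxaben replicate 3 (0.58) and that of UGT73B4 with median centring (0.38). UGT85A2 was called higher with array weights (0.31), in the second title set (0.39) and without control replicate 1 (0.42). These settings called 9871, 9025 and 8393 of all 13648 tested probe sets in that order, against 7726 in the main fit. With the 60th percentile filter 5 UGTs were tested, and 2 were higher and 2 lower, where 2952 of all 9099 probe sets were higher and 2974 lower. UGT88A1, 1 of the 2 higher, entered that stricter filter only through its isoxaben arrays. Its control mean of 49.2 lay below both group means of UGT85A2 (59.6 with isoxaben and 49.9 in control cultures), which did not enter. The call of UGT88A1 under that filter therefore adds no support. With no filter 6 were higher and 3 lower. With a pseudocount of 64, 16 UGTs were tested, and 5 were higher and 2 lower, with 7753 calls over all probe sets. The added rise there was of a UGT under the main filter. Leaving out 1 array gave 3 to 5 higher, 2 lower in each case, and 6676 to 8393 calls over all probe sets. With the replicate block 4 UGTs were higher and 2 lower, as without it, with 8163 calls over all probe sets against 7726, and no UGT call changed. Members that never passed changed sign near 0: UGT71C4 with array weights (-0.028) and in the second title set (-0.0100), UGT72E2 in the second title set (0.040), and UGT84A4 with quantile normalization (-0.011) and median centring (-0.038). With 1 array left out, UGT72E2 ranged from -0.056 to 0.040, UGT74B1 from -0.073 to 0.14, UGT84A4 from -0.047 to 0.094 and UGT87A2 from -0.088 to 0.067. The cause of these changes was not tested. For UGTs under the filter, further alternatives were chosen after seeing the data. With a pseudocount of 1 and no filter, 2 were higher and 0 lower. Where all arrays of a group had to reach the filter signal, 1 was higher and 0 lower. That 1 was UGT71B1, the only UGT under the filter to enter that fit, and only through its isoxaben arrays. A member that enters this way had to differ, so its call adds no support. The planned count over genes gave the same values, since each UGT gene has 1 probe set.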

Other observations

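Beta-glucosidases remove glucose from conjugates of the kind UGTs make. Of 20 with a named probe set, 9 were tested, 2 rose, 3 fell and 4 did not pass (limma, adjusted p under 0.05), with a median log2 change of 0.07 against 0.01 over all tested probe sets. Called were 56.6% of all tested probe sets, 29.4% higher and 27.2% lower, so the count is close to the background. BGLU45 and BGLU46 can both release lignin precursors from their glucosides. BGLU45 had signals of 58.0, 42.2 and 54.7 on isoxaben arrays, against 10.6, 10.8 and 11.8 on control arrays, all below the filter signal. It passed the filter only through its isoxaben arrays, and 1 beta-glucosidase rose without it, BGLU42. The log2 change of BGLU45 was 1.31 ± 0.15 (limma, adjusted p = 5.71e-05, and 0.000419 with no filter). BGLU46 had 103.5, 117.9 and 98.3 against 236.0, 263.5 and 236.7 (-1.09 ± 0.11, limma adjusted p = 2.47e-05). The groups lay apart in both. BGLU28, which can act on glucosinolates, had 851.9, 812.8 and 842.8 against 1627.4, 1768.0 and 1689.9 (-1.01 ± 0.09, limma adjusted p = 7.09e-06).

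All 4 tested glutathione transferases, of 14 with a named probe set, fell, with a median log2 change of -0.75 against 0.01 over all tested probe sets, of which 27.2% were lower. GSTU27 had signals of 472.1, 567.7 and 653.4 on isoxaben arrays, against 1571.2, 1798.0 and 1814.4 on control arrays, and was 3.06-fold lower (-1.60 ± 0.13, limma adjusted p = 4.44e-06). GSTU15 had 27.1, 39.9 and 38.5 against 72.7, 87.4 and 88.0 (-0.95 ± 0.15, limma adjusted p = 0.000355). GSTL3 had 204.4, 237.4 and 263.3 against 310.1, 356.1 and 382.9 (-0.54 ± 0.13, limma adjusted p = 0.00454). In all 3 the isoxaben arrays lay below the control arrays. The last of the 4, GSTU22, is outside the naming rule, was named after its values were seen and had 24.9, 20.9 and 29.5 on isoxaben arrays, against 42.1, 43.8 and 46.3 on control arrays (-0.55 ± 0.14, limma adjusted p = 0.00792). Under the filter, GSTU16 and GSTU26 were higher with isoxaben in the limma fit with no filter (0.83, adjusted p = 0.00308, and 0.40, adjusted p = 0.0351). That fit called 9.39% of all probe sets under the filter, 5.57% higher and 3.81% lower. No gene of the transporter list had a named probe set.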
